A study of Mus musculus with 13 samples.

Results

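In all, 40 named mouse genes of the interferon response and of antigen presentation by MHC class I were followed through ventricles and isolated heart cells of different ages. The genes were taken by symbol from a fixed list that was chosen with earlier results of these data known. Counts of its genes beside the share of all genes are therefore descriptions and not independent findings. The level of each gene was the sum over its named transcripts of 200 nucleotides or more. Of the 40 genes, 36 could be tested in isolated cells among 12072 genes, and 29 could be tested in ventricles among 11617 genes.

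The 13 libraries came from wild-type FvB mice, and atria had been removed in every case. Cardiac fibroblasts were sampled at PN60 and PN28 (PN is the postnatal day), which form the later group, and in 2 neonatal libraries titled PN1-3 and PN1-2. Cardiomyocytes, the contractile cells, were sampled at PN67 and PN30 and in 2 neonatal libraries titled PN1-2 and PN1. Whole ventricles were sampled once each at E17 (E is the embryonic day), PN1, PN10, PN28 and PN90. Fibroblasts of each age were obtained by enzymatic digestion and preplating, so they are cells that adhered early and not a sorted population. Cardiomyocytes came from Langendorff perfusion at PN30 and PN67 and from preplating in the neonate, so that age and isolation cannot be told apart in them. In the cells the libraries were made with a TruSeq protocol, whereas ventricular RNA was depleted of ribosomal RNA and prepared with ScriptSeq v2, and levels were therefore not tested between cells and ventricles. Nothing states that the neonatal libraries came from separate litters or cultures, so each p-value speaks of the spread among these libraries alone.

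Type I interferons such as interferon beta bind a receptor made of the chains IFNAR1 and IFNAR2, and the kinases JAK1 and TYK2 then activate transcription factors, STAT2 among them. A complex that holds STAT2 and IRF9 binds interferon-stimulated response elements and turns on a broad antiviral programme, while interferon gamma acts mainly through gamma-activated sites. MHC class I molecules, a heavy chain bound to beta-2-microglobulin, show peptides to cytotoxic T cells; interferon also induces the proteasome subunits and transporters that supply those peptides.

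Marker genes differed between the libraries. Summed FPKM (fragments per kilobase of transcript, relative to all mapped fragments and scaled between libraries) of 11 cardiomyocyte markers was 37.2 and 29.1 in later fibroblasts at PN60 and PN28, against 1345 and 1142 in neonatal fibroblasts, and it lay between 12033 and 49574 in the cardiomyocyte libraries. Summed FPKM of 15 macrophage and leukocyte markers was 1042 and 1286 in later fibroblasts, against 143 and 286 in neonatal fibroblasts. In later fibroblasts 12 of the 15 were called higher, against 19.7% of all genes tested. Without the 2 that passed the filter on low values (a mean of at least 1 FPKM) only through those libraries, 11 of 13 were higher. In cardiomyocytes the sum of these markers was 390.0 and 375 at PN67 and PN30, against 99.0 and 126 in the neonate. Lymphocyte markers summed to between 2.2 and 5.5 FPKM in the cell libraries, with 7 of 9 below 1 FPKM in every one of them. In bulk RNA fewer cells of a type and less RNA per cell cannot be told apart, and the part of macrophages in the results on the interferon genes was not tested. The files give no read counts, so exact depth is unknown; the median half-width of the deposited 95% confidence interval of transcripts at 1 FPKM or more was between 7.18% and 8.41% of the value.

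Promoter sequences are shown for 6 of the genes because they span the kinds of element through which the programme is switched on. The sequences are the 250 bases before the annotated start, from RefSeq on GRCm38.p6, written 5′ to 3′ on the gene's strand. Capitals mark the core of the interferon-stimulated response element, GAAANNGAA followed by a further A on either strand, or of the gamma-activated site, TTCNNNGAA, which reads the same on both strands. Isg15 (chr4:156200819-156201068, minus strand) encodes a ubiquitin-like protein joined to other proteins, and Ifit1 (chr19:34640639-34640888, plus strand) encodes a sensor of foreign RNA caps. Gbp2 (chr3:142620413-142620662, plus strand) and Igtp (chr11:58199306-58199555, plus strand) encode interferon-inducible GTPases. B2m (chr2:122147437-122147686, plus strand) encodes beta-2-microglobulin, and Irf1 (chr11:53769764-53770013, plus strand) encodes a transcription factor known to be induced by interferon gamma.
Isg15: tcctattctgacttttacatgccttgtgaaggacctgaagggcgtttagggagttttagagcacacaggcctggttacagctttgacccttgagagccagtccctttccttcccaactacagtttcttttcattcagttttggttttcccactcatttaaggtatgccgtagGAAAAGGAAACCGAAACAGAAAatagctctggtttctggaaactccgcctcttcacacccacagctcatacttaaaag
Ifit1: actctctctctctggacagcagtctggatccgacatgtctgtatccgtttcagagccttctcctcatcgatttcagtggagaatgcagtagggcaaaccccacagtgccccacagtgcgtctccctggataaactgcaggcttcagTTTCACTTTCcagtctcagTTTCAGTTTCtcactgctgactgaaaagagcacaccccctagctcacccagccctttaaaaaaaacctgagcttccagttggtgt
Gbp2: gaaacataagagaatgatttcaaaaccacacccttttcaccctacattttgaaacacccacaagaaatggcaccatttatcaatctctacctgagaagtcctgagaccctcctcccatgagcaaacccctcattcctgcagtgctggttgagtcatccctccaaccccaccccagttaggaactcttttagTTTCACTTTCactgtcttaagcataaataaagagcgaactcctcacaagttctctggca
Igtp: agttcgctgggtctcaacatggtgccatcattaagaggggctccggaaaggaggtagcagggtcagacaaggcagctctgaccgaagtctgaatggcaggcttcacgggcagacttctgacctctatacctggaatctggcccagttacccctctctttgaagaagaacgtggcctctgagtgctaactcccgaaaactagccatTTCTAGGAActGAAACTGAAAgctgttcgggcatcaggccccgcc
B2m: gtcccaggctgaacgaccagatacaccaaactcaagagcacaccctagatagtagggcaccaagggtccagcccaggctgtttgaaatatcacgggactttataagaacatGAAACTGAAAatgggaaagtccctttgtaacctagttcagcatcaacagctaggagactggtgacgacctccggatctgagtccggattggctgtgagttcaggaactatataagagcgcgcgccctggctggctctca
Irf1: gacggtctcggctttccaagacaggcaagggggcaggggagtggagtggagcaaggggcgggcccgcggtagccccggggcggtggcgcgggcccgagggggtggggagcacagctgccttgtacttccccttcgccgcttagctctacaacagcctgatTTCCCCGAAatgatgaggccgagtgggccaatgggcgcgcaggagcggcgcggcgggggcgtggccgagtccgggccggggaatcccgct

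The Isg15 promoter held 3 overlapping response element cores between 78 and 57 bases before the start. In Ifit1 a pair of separate cores lay on the opposite strand, from 104 to 95 and from 85 to 76 bases before the start. Gbp2 had a core on the opposite strand from 59 to 50 bases before the start. Igtp carried a core 34 to 25 bases before the start, and a gamma-activated core 45 to 37 bases before it. B2m carried a core 139 to 130 bases before the start, whereas Irf1 carried a gamma-activated core 90 to 82 bases before it. Of the 34 genes of the group with a promoter in the table, 18 held this response element core between 250 bases before and 50 bases after a start (52.9%, exact 95% interval 35.1% to 70.2%), against 3.99% of 27025 genes in the same table. The shorter core GAAANNGAA was in 19 of 34 genes, against 9.76% of 27025, and it includes every match of the longer core. TTCNNNGAA was in 8 of 34 genes, against 9.55% of 27025, and it overlapped the response element core in Bst2 and Ifitm3. By role, the response element core was present in 2 of 2 sensors, 1 of 4 transcription factors, 8 of 13 antiviral effectors, 4 of 4 GTPases, 2 of 9 class I genes and 1 of 2 chemokines. A match describes letters only, and is neither a site nor a cause.

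In fibroblasts nearly the whole measured programme was higher in the later libraries. Of the 36 genes tested, 35 rose, none fell and Ifitm2 did not pass the test, whereas 19.7% of all genes tested rose and 20.8% fell (limma on log2(FPKM + 1), later minus neonatal, adjusted over all genes at 0.05). The median log2 difference of the 36 was 2.68, with a range of 0.28 to 4.73, against −0.02 over all genes tested. In 35 of the 36 genes both later libraries lay above both neonatal libraries, which held for 32.6% of all genes tested. Dhx58, Oas1a, Mx2 and Nlrc5 had passed the filter on low values only through the later fibroblasts; of the other 32 genes, 31 rose, whereas 18.6% of 11826 genes that passed without the later fibroblasts rose. With the FPKM as deposited 34 genes rose, the call of Ifitm1 being lost, and with equal sums after removal of mitochondrial genes 35 rose. Across all genes those scalings called 1473 higher and 4654 lower, and 1488 higher and 4703 lower, against 2375 higher and 2509 lower here. They moved the median of all genes to −0.29 and −0.30.

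**Figure D1:**
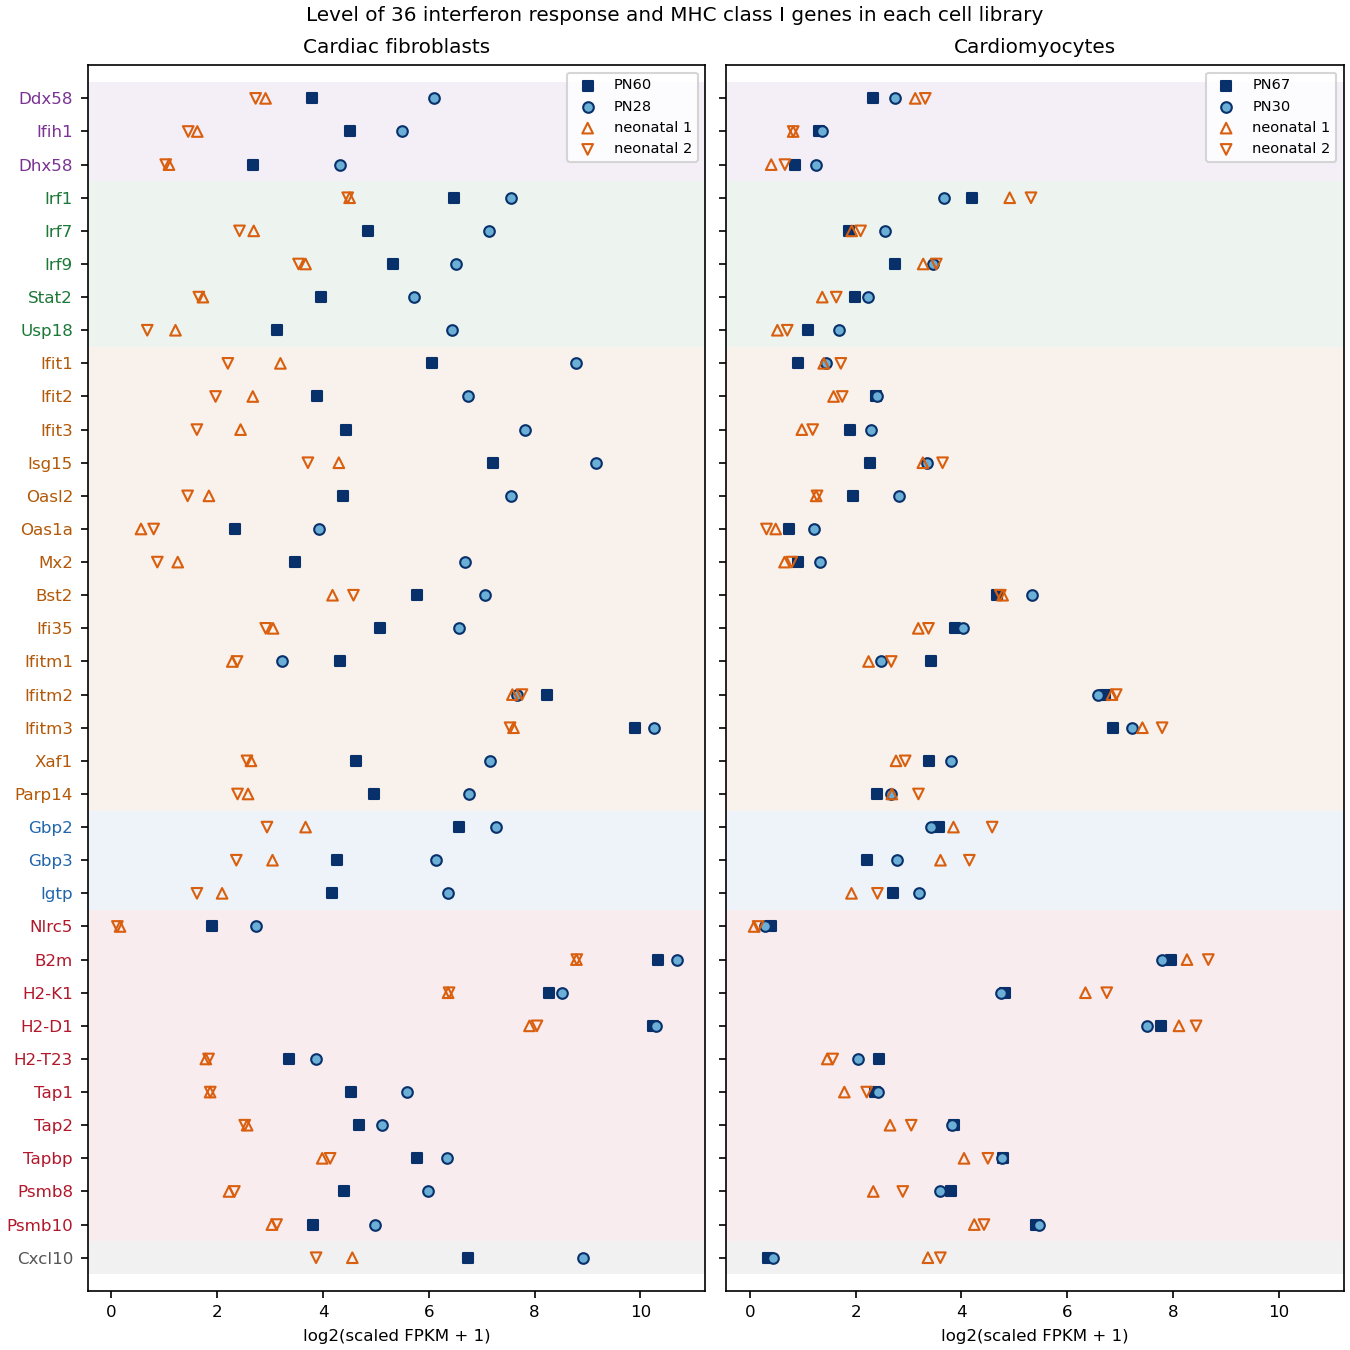
Level of each of 36 genes, as log2(scaled FPKM + 1), in the 4 fibroblast libraries (left) and the 4 cardiomyocyte libraries (right), with shaded bands for the roles of the genes. Filled symbols are later libraries and open triangles neonatal ones; in fibroblasts the filled symbols lie to the right of the open ones for 35 genes.

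The 3 sensors detect viral RNA in the cytoplasm: RIG-I, encoded by Ddx58, MDA5, encoded by Ifih1, and LGP2, encoded by Dhx58, which regulates both others. All 3 rose in later fibroblasts, though Dhx58 passed the filter on low values only through those libraries. Ifih1 (chromosome 2, 62433850 to 62484312 in mm9) had 21.9 FPKM at PN60 and 44.2 at PN28, against 2.08 and 1.74 in neonatal fibroblasts. Both later libraries lay above both neonatal ones, as for 32.6% of all genes tested. The log2 difference was 3.47 ± 0.28 (SE; limma, adjusted p = 0.00011). Ddx58 had 12.8 FPKM at PN60 and 67.9 at PN28, against 6.55 and 5.62 in neonatal fibroblasts, a log2 difference of 2.13 ± 0.62 (SE; limma, adjusted p = 0.028). Dhx58 rose by 2.45 ± 0.45 (SE, log2) with levels of 5.42 and 19.1 FPKM in later fibroblasts, against 1.13 and 1.04 in neonatal ones.

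The next 5 genes encode the factors that carry the signal to DNA and their brake. Each of Irf1, Irf7, Irf9, Stat2 and Usp18 rose. Irf7, the factor that amplifies type I interferon production, had 27.8 FPKM at PN60 and 139.9 at PN28, against 5.46 and 4.36 in neonatal fibroblasts. The difference was 3.44 ± 0.63 on the log2 scale (SE; limma, adjusted p = 0.0044). Stat2, a subunit of the response complex, had 14.5 and 51.5 FPKM in later fibroblasts, against 2.32 and 2.15 in neonatal ones. Irf9, which gives that complex its DNA contact, had 39.0 and 90.6 FPKM in later fibroblasts, against 11.7 and 10.6 in neonatal ones. In both genes the later libraries lay above the neonatal ones, as for 32.6% of all genes tested. The log2 differences were 3.14 ± 0.48 for Stat2 and 2.31 ± 0.38 for Irf9 (SE). Irf1 had 87.6 and 186 FPKM in later fibroblasts, against 21.7 and 21.1 in neonatal ones, and rose by 2.52 ± 0.34 (SE, log2). Usp18, which removes ISG15 from proteins and damps the receptor, had 7.76 FPKM at PN60 and 85.4 at PN28, against 1.32 and 0.602 in neonatal fibroblasts. Its difference of 3.84 ± 0.88 (SE, log2) had a wide error, and the later libraries lay far apart.

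Among 14 antiviral effectors tested, 13 rose. Of these, Oas1a and Mx2 passed the filter on low values only through the later fibroblasts. Ifit1 (chromosome 19, 34715361 to 34724499 in mm9) had 66.0 FPKM at PN60 and 441 at PN28, against 8.16 and 3.60 in neonatal fibroblasts. Its log2 difference of 4.73 ± 0.77 was the largest of the 36 (SE; limma, adjusted p = 0.0026). By mean level among 12072 genes Ifit1 ranked 275 in later fibroblasts and 6849 in neonatal ones. Isg15, also released from cells as a cytokine-like protein, had 147 FPKM at PN60 and 573 at PN28, against 18.7 and 12.1 in neonatal fibroblasts. It rose by 4.18 ± 0.61 (SE, log2) and ranked 178 in later and 3829 in neonatal fibroblasts. The Ifit1 and Isg15 promoters are among those printed above with response element cores. Oasl2, a member of the oligoadenylate synthetase family, had 19.9 and 186 FPKM in later fibroblasts, against 2.59 and 1.72 in neonatal ones, and rose by 4.32 ± 0.86 (SE, log2). Ifit3, which binds other IFIT proteins, had 20.6 and 223 FPKM in later fibroblasts, against 4.44 and 2.07 in neonatal ones. Mx2, a dynamin-like GTPase that restricts viruses, had 10.1 and 101 FPKM in later fibroblasts, against 1.39 and 0.827 in neonatal ones. These last 3 genes share a pattern in which PN28 stood well above PN60 and PN60 well above both neonates.

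The Ifitm genes encode small membrane proteins that hinder viral fusion, and they did not move together. Ifitm3 had 954 FPKM at PN60 and 1224 at PN28, against 193 and 185 in neonatal fibroblasts. It rose by 2.51 ± 0.19 (SE, log2; limma, adjusted p = 7.5e-05), the 2 ages lying close together. Ifitm1 had 19.0 and 8.41 FPKM in later fibroblasts, against 3.88 and 4.19 in neonatal ones, and rose by 1.45 ± 0.41 (SE, log2), with PN60 the higher age. Ifitm2 had 298 FPKM at PN60 and 203 at PN28, against 190.3 and 216 in neonatal fibroblasts, so that the groups overlapped. The log2 difference of Ifitm2 was 0.28 ± 0.18 (SE; limma, adjusted p = 0.26). Neighbouring Ifitm genes are alike in sequence and may share reads. The remaining effectors that rose were Ifit2, Oas1a, Bst2, Ifi35, Xaf1 and Parp14, with log2 differences between 2.03 for Bst2 and 3.37 for Parp14. Bst2, the tetherin that holds budding virus on the cell, had 53.6 and 132 FPKM in later fibroblasts, against 17.1 and 22.9 in neonatal ones. Parp14, an ADP-ribosyl transferase, had 30.1 and 107 FPKM in later fibroblasts, against 5.0 and 4.23 in neonatal ones. Xaf1, a promoter of cell death, had 23.7 and 141 FPKM in later fibroblasts, against 5.23 and 4.91 in neonatal ones. In each of these 3 genes PN60 exceeded both neonatal libraries by at least 2-fold.

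The GTPases Gbp2, Gbp3 and Igtp, which act on membranes of intracellular pathogens, all rose. Gbp2 had 94.2 FPKM at PN60 and 153 at PN28, against 11.7 and 6.69 in neonatal fibroblasts. It rose by 3.61 ± 0.34 (SE, log2; limma, adjusted p = 0.00021). Igtp had 17.0 and 80.8 FPKM in later fibroblasts, against 3.27 and 2.07 in neonatal ones, and Gbp3 had 18.2 and 69.5, against 7.26 and 4.14. For each of the 3 genes both later libraries lay above both neonatal ones, as for 32.6% of all genes tested. Cxcl10, a chemokine that draws T cells, had 106 FPKM at PN60 and 479.8 at PN28, against 22.5 and 13.6 in neonatal fibroblasts. It rose by 3.61 ± 0.60 (SE, log2; limma, adjusted p = 0.0028).

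Each of the 10 class I pathway genes tested rose in later fibroblasts, though Nlrc5 passed the filter on low values only through those libraries. Nlrc5, the transactivator of class I genes, had 2.73 FPKM at PN60 and 5.63 at PN28, against 0.121 and 0.083 in neonatal fibroblasts, both below 1 FPKM. B2m (chromosome 2) had 1293 and 1656 FPKM in later fibroblasts, against 442 and 444 in neonatal ones. The log2 difference was 1.72 ± 0.17 (SE; limma, adjusted p = 0.00024). H2-D1, a classical heavy chain, had 1204 and 1257 FPKM in later fibroblasts, against 238 and 263 in neonatal ones. It rose by 2.29 ± 0.15 (SE, log2; limma, adjusted p = 4.5e-05), the smallest adjusted p of the 36. H2-K1, the other classical heavy chain measured, had 308 and 364 FPKM in later fibroblasts, against 81.4 and 82.5 in neonatal ones, and rose by 2.02 ± 0.16 (SE, log2). B2m ranked 18 and H2-D1 ranked 27 among 12072 genes by mean level in later fibroblasts, against 107 and 193 in neonatal ones. H2-T23, a non-classical heavy chain seen by receptors of natural killer cells, had 9.23 and 13.6 FPKM in later fibroblasts, against 2.45 and 2.58 in neonatal ones.

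Genes that make and load the peptides moved with the heavy chains. Tap1, a subunit of the peptide transporter, had 22.1 FPKM at PN60 and 47.2 at PN28, against 2.65 and 2.66 in neonatal fibroblasts. It rose by 3.19 ± 0.32 (SE, log2; limma, adjusted p = 0.00026). Its partner Tap2 had 24.8 and 33.8 FPKM in later fibroblasts, against 4.93 and 4.74 in neonatal ones, and Tapbp, the tapasin that bridges transporter and heavy chain, had 54.1 and 80.0, against 14.8 and 16.6. Psmb8, a catalytic subunit of the immunoproteasome, had 19.9 and 62.0 FPKM in later fibroblasts, against 3.67 and 4.01 in neonatal ones, and rose by 2.91 ± 0.45 (SE, log2). Psmb10, another such subunit, had 13 and 30.6 FPKM in later fibroblasts, against 7.20 and 7.72 in neonatal ones, and rose by 1.32 ± 0.33 (SE, log2). In fibroblasts the calls of Psmb10 and Ifit2 were lost under 3 alternatives each, and those of Ddx58 and Ifitm1 under 5 each. Those of Gbp3, Ifit3, Mx2 and Usp18 were lost only without the neonatal fibroblasts titled PN1-2. In all 10 class I genes both later libraries exceeded both neonatal ones, which held for 32.6% of all genes tested. None of the 3 constitutive proteasome catalytic subunits passed the test in fibroblasts.

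Another 4 genes of the group were not tested in cells. Rsad2 and Irgm1 carried a failed quantification status in both later fibroblast libraries. Where Rsad2 was quantified its deposited FPKM was 25.7 and 11 in neonatal fibroblasts, 5.29 and 5.35 in later cardiomyocytes and 13.4 and 18.9 in neonatal cardiomyocytes. Irgm1 had 14.4 and 8.43 FPKM as deposited in neonatal fibroblasts, 8.98 and 9.78 in later cardiomyocytes and 16.2 and 22.5 in neonatal cardiomyocytes. Cxcl9 was under the filter on low values, with 0.279 FPKM at PN60 and 0.347 at PN28 in fibroblasts. At Psmb9 transcripts with no gene name in the annotation used held the whole signal of the locus, so its named level could not be used.

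The signalling genes around the group were also described, from a list of ligands, receptors and kinases. Of 20 tested, 10 were called higher and none lower in later fibroblasts, beside 19.7% and 20.8% of all genes tested, and Ifnb1 and Socs1 had the largest differences. Without Ifnb1 and Tlr7, which passed the filter only through the later fibroblasts, 8 of 18 rose. Ifnb1, which encodes interferon beta, had 116 FPKM at PN60 and 87.2 at PN28, against 0.954 and 1.08 in neonatal fibroblasts. Ifnb1 passed the filter on low values only through these later fibroblasts, so its difference of 5.65 on the log2 scale is given as a description. In the cardiomyocyte libraries it had 0.0329 FPKM at PN67 and 0 at PN30, against 0.165 and 0.167 in the neonate. Ifnb1 was at 0 in each of the 5 ventricle libraries. Socs1, an inhibitor of JAK kinases, had 22.8 and 41.1 FPKM in later fibroblasts, against 4.07 and 4.65 in neonatal ones.

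The receptor and kinase genes, named here after their values were seen, had smaller differences. Ifnar2 had 63.1 and 61.2 FPKM in later fibroblasts, against 25.2 and 26.1 in neonatal ones, and rose by 1.25 ± 0.15 (SE, log2). Jak1 had 244 and 171 FPKM in later fibroblasts, against 88.1 and 72.0 in neonatal ones, and rose by 1.35 ± 0.20 (SE, log2). Ifnar1 (0.33 ± 0.21) and Tyk2 (−0.19 ± 0.14, SE, log2) did not pass the test. Of 30 other interferon-stimulated genes tested 28 were called higher and none lower in later fibroblasts, with Sp100 at 3.89 and Ifit3b at 3.76 on the log2 scale. Ifit3b and 8 others of these passed the filter only through the later fibroblasts, and of the other 21 genes 20 rose. Of 13 other class I genes tested 9 rose, led by H2-Q7 at 3.02 and H2-Q6 at 2.82, and Cd1d1, which presents lipids, fell by 0.92. Beside these lists, 19.7% of all genes tested rose and 20.8% fell.

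**Figure D2:**
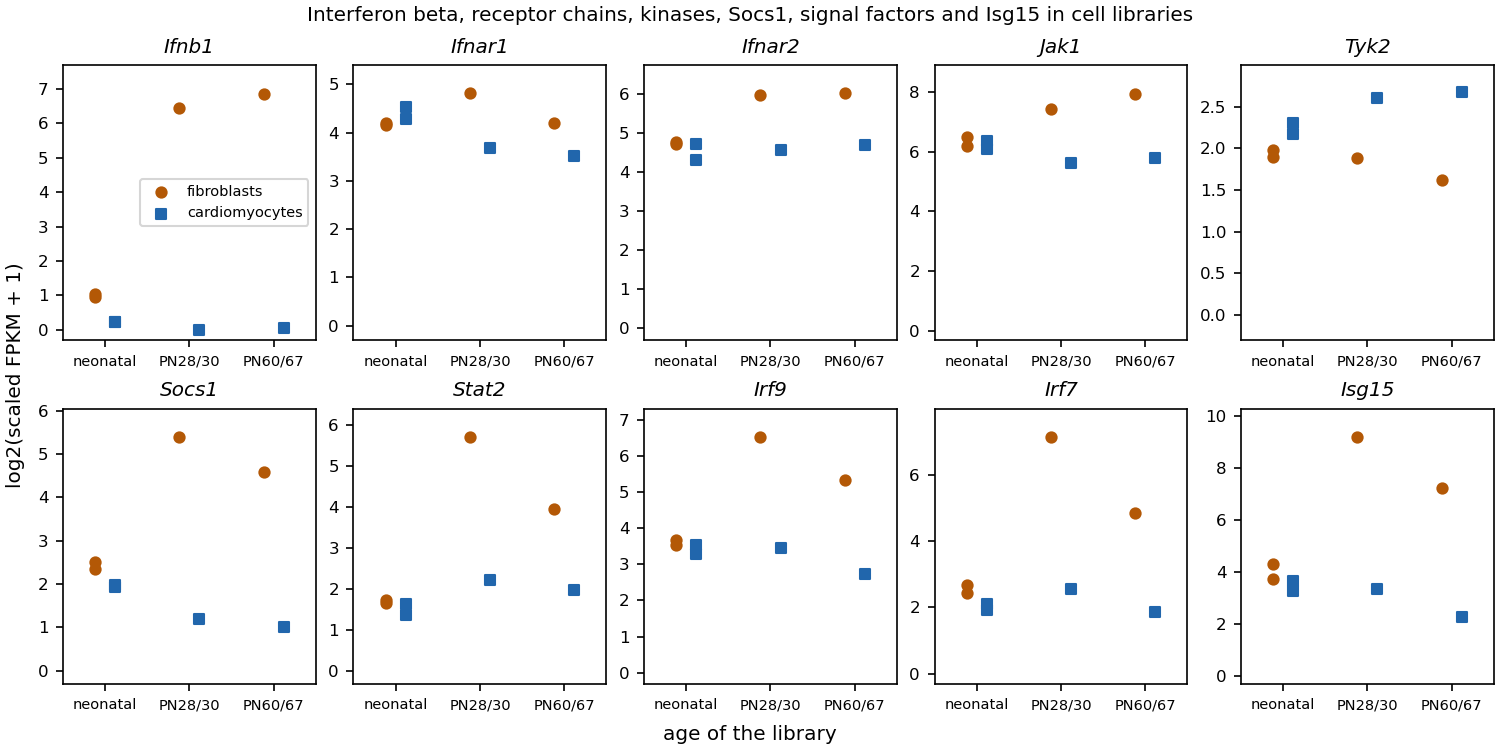
Levels of interferon beta, its receptor chains and kinases, the inhibitor Socs1, 3 signal factors and Isg15, as log2(scaled FPKM + 1), by age of the library, with fibroblasts as circles and cardiomyocytes as squares. Each symbol is 1 library; Ifnb1 lies at 116 and 87.2 FPKM in later fibroblasts and at 1.08 FPKM or less in the other 6 libraries.

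In cardiomyocytes the same genes moved in different directions. Of the 36 tested, 3 rose, 6 fell and 27 did not pass the test, whereas 37.2% of all genes tested rose and 29.8% fell (limma, later minus neonatal). The median of the 36 was 0.40, against 0.10 over all genes tested. Both later libraries lay above both neonatal ones for 19 genes (52.8%, against 48.8% of all genes tested) and below them for 11 (30.6%, against 40.7%). The genes that rose were H2-T23, Tap2 and Psmb10, and those that fell were Irf1, Ifitm3, B2m, H2-K1, H2-D1 and Cxcl10. With the FPKM as deposited or with equal sums only Tap2 rose, and the 6 genes that fell were joined by Ifitm2, Gbp2 and Gbp3; across all genes those scalings called 3363 higher and 4865 lower, and 3006 higher and 5228 lower, against 4494 higher and 3594 lower here. The median of all genes lay at −0.19 and −0.28 under them. Because the fit pools the spread of all cell libraries, the 2 later fibroblast libraries weigh on it: without the PN60 or without the PN28 fibroblasts 17 genes rose, and without the PN67 cardiomyocytes or the neonatal cardiomyocytes titled PN1-2 1 gene rose. Without the neonatal cardiomyocytes titled PN1 only H2-K1 and Cxcl10 of the 6 remained lower.

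Class I pathway genes moved in both directions. H2-K1 had 27.4 FPKM at PN67 and 26 at PN30, against 80.2 and 106 in neonatal cardiomyocytes. It fell by 1.75 ± 0.16 (SE, log2; limma, adjusted p = 5.1e-05). H2-D1 had 219 and 181 FPKM in later cardiomyocytes, against 275 and 345 in neonatal ones, and fell by 0.63 ± 0.15 (SE, log2). B2m had 250 and 221 FPKM in later cardiomyocytes, against 306 and 405 in neonatal ones, and fell by 0.58 ± 0.17 (SE, log2). For these 3 genes both later libraries lay below both neonatal ones, as for 40.7% of all genes tested. Tap2 had 13.4 and 13.1 FPKM in later cardiomyocytes, against 5.28 and 7.29 in neonatal ones, and rose by 0.99 ± 0.19 (SE, log2; limma, adjusted p = 0.0025). Psmb10 had 41.5 and 43.3 FPKM in later cardiomyocytes, against 17.9 and 20.5 in neonatal ones, and rose by 1.11 ± 0.33 (SE, log2; limma, adjusted p = 0.018). H2-T23 had 4.43 and 3.11 FPKM in later cardiomyocytes, against 1.76 and 1.96 in neonatal ones, and rose by 0.72 ± 0.21 (SE, log2; limma, adjusted p = 0.016). The calls of Psmb10 and H2-T23 were lost under 7 and 5 alternatives, with limma adjusted p up to 0.099 and 0.12, and that of B2m under 3, with adjusted p up to 0.14. For the 3 genes that rose both later libraries lay above both neonatal ones, as for 48.8% of all genes tested. All 3 constitutive proteasome catalytic subunits, which Psmb10 and its relatives replace, rose as well, led by Psmb5 at 0.87 and Psmb7 at 0.76. Of all genes tested 37.2% rose.

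Cxcl10 had 0.274 FPKM at PN67 and 0.347 at PN30, against 9.31 and 11.1 in neonatal cardiomyocytes. It fell by 3.09 ± 0.60 (SE, log2; limma, adjusted p = 0.0024), the largest fall of the 36. Irf1 had 17.4 and 11.8 FPKM in later cardiomyocytes, against 29.1 and 38.8 in neonatal ones, and fell by 1.17 ± 0.34 (SE, log2). Ifitm3 had 116 and 149 FPKM in later cardiomyocytes, against 170.3 and 221 in neonatal ones, and fell by 0.56 ± 0.19 (SE, log2). For each of these genes both later libraries lay below both neonatal ones, as for 40.7% of all genes tested. Isg15 had 3.84 FPKM at PN67 and 9.21 at PN30, against 8.65 and 11.5 in neonatal cardiomyocytes, groups that overlapped, and did not pass the test. Ifit1 had 0.876 and 1.72 FPKM in later cardiomyocytes, against 1.63 and 2.29 in neonatal ones, and did not pass either. Both genes thus stayed below 12 FPKM in the 4 cardiomyocyte libraries. Endothelial markers fell in the same libraries, 11 of 13 passing the test, against 29.8% of all genes tested. All 3 erythroid markers fell too, with summed FPKM of 712 and 1103 in later cardiomyocytes, against 15376 and 20438 in neonatal ones. The part of such markers in the results on these genes was not tested. Of 20 signalling genes 4 rose, led by Mavs at 2.61 and Ifngr2 at 1.34, and 10 fell, led by Jak2 at −2.23 and Irf2 at −1.04. Of all genes tested 37.2% rose and 29.8% fell, shares that also stand beside the lists that follow. Of 30 other interferon-stimulated genes 5 rose, led by Sp100 at 2.93 and Uba7 at 1.62, and 2 fell, Isg20 at −2.28 and Trim25 at −1.39. Of 13 other class I genes 3 rose, led by Psme1 at 1.14 and H2-M3 at 0.90, and 4 fell, led by Cd1d1 at −1.49 and H2-Q7 at −1.29.

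**Figure D3:**
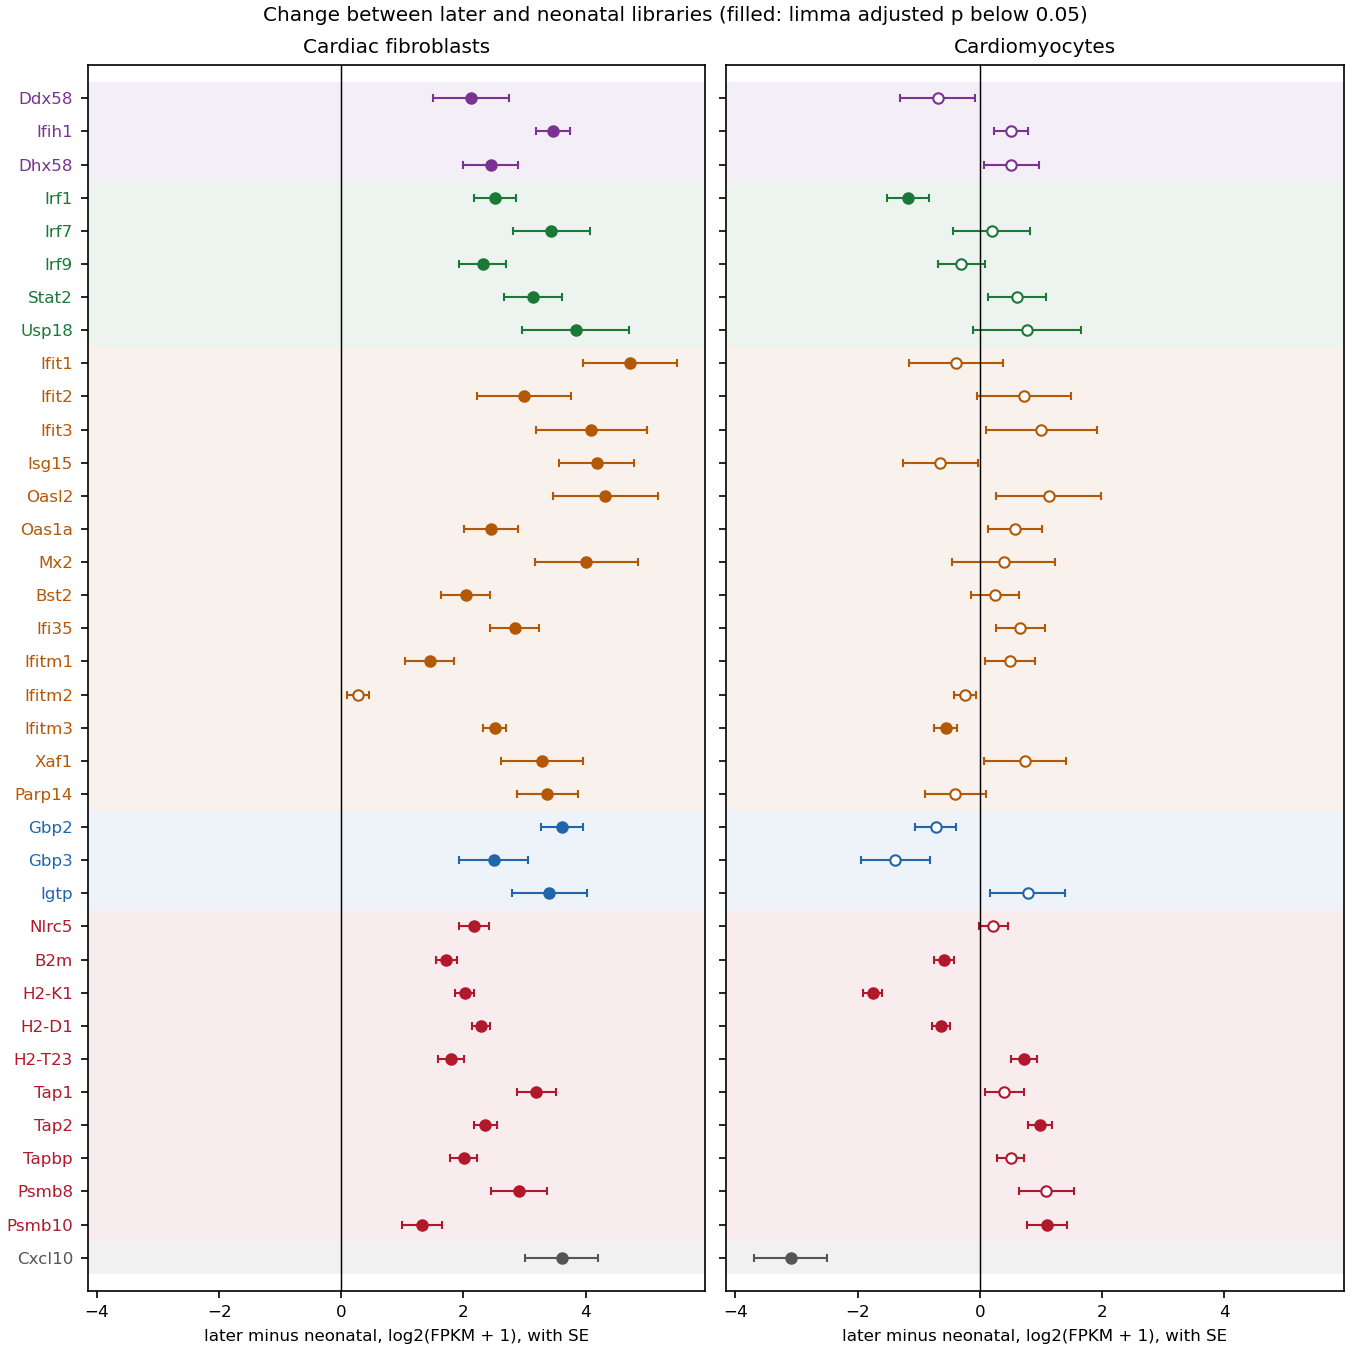
Difference between later and neonatal libraries for 36 genes, on the log2(FPKM + 1) scale with its standard error, in fibroblasts (left) and cardiomyocytes (right). Filled points passed the limma test at an adjusted p below 0.05, 35 in fibroblasts and 9 in cardiomyocytes; with the FPKM as deposited or equal sums H2-T23 and Psmb10 no longer passed in cardiomyocytes and Ifitm2, Gbp2 and Gbp3 did, as falls.

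Whether the cell types changed differently was tested directly as the fibroblast change minus the cardiomyocyte change. That difference was called for 29 of the 36 genes, each with the higher value in fibroblasts, and for 25 of the 32 that passed the filter without the later fibroblasts, whereas 26.3% of all genes tested were called in that direction and 32.3% in the other. The median was 2.71, against −0.09 over all genes tested. Cxcl10 had the largest difference, 6.71 ± 0.85 (SE, log2; limma, adjusted p = 0.00043), and H2-K1 the smallest adjusted p, with 3.77 ± 0.22 (SE, log2; limma, adjusted p = 1.6e-05). Ifit1 differed by 5.11 and Isg15 by 4.82 on the log2 scale. Usp18, Ifit2, Ifit3, Oasl2, Ifitm1, Ifitm2 and Psmb10 did not pass, with differences between 0.21 for Psmb10 and 3.19 for Oasl2. Without the neonatal cardiomyocytes titled PN1 17 genes were called.

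The cell types were also set side by side at each age; few genes of the group were called in the neonate and nearly all later. In neonatal libraries Ifitm2 was higher in fibroblasts, by 0.78 ± 0.18 (SE, log2; limma, adjusted p = 0.011), and Psmb10 was lower, by −1.25 ± 0.33 (SE, log2; limma, adjusted p = 0.018). The other 34 genes did not pass, whereas 19.0% of all genes tested were higher and 21.4% lower in neonatal fibroblasts. A miss of the threshold does not show that the levels were alike, and the calls followed the setting: with equal sums 3 genes of the group were higher, and all genes tested then gave 3285 higher and 2246 lower. Without the PN60 or without the PN28 fibroblasts 7 genes were higher and 4 lower, and Psmb10 was not called once any of the 4 neonatal libraries was left out. The call of Ifitm2 was lost without the neonatal fibroblasts titled PN1-2 or without either neonatal cardiomyocyte library. In later libraries 34 genes, 30 of the 32 that passed the filter without the later fibroblasts among them, were higher in fibroblasts and Psmb10 was lower, by −1.05 ± 0.33 (SE, log2; limma, adjusted p = 0.019), against 39.3% and 38.4% of all genes tested. The median of the 36 was 2.68, against 0.03. Without either later cardiomyocyte library no gene of the 36 was lower. Cxcl10 stood 7.44 and Ifit1 6.25 higher on the log2 scale, and Ifitm1 did not pass. For 33 of the 36 genes both later fibroblast libraries exceeded the 6 other cell libraries, which held for 20.3% of all genes tested; the exceptions were Ifitm1, Ifitm2 and Psmb10. Dhx58, Oas1a, Mx2 and Nlrc5 are among the 33 and passed the filter only through those libraries; without such genes the count was 29 of 32, against 19.2% of 11826 genes.

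The 2 later fibroblast libraries differed from each other in most of the group. With 1 library at each age there is no test, and a difference is described as past 2-fold or not. Of the 36 genes, 24 were at least 2-fold lower at PN60 than at PN28, Ifitm1 was higher by 1.09 on the log2 scale and 11 lay within 2-fold, whereas 2.68% of all genes tested were that much lower and 1.94% higher. The median was −1.54, against 0.00 over all genes tested. The largest gaps were −3.38 for Ifit3, −3.30 for Usp18, −3.21 for Mx2 and −3.16 for Oasl2. Class I genes had smaller gaps: 3 of 10 were past 2-fold, Psmb8 at −1.59, Psmb10 at −1.18 and Tap1 at −1.06, and the median was −0.53. H2-D1 stood at −0.06, H2-K1 at −0.24 and B2m at −0.36. Ifnb1 was not lower at PN60, with 116 FPKM, against 87.2 at PN28. The other interferon-stimulated genes had 25 of 30 past 2-fold lower and a median of −2.01, while the signalling list had 2 of 20 and a median of −0.29.

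Genes with and without a response element core in the promoter can be set side by side over this age gap: 10 of 16 tested genes with the core were at least 2-fold lower at PN60, with a median of −1.67, against 10 of 14 without it, with a median of −1.19. Between the cardiomyocytes of PN67 and PN30 only Isg15 of the 36 was past 2-fold, at −1.08, and the median was −0.20, whereas 0.572% of all genes tested were that much lower and 0.986% higher. The sum of macrophage and leukocyte markers was 1042 FPKM in PN60 fibroblasts, against 1286 in PN28 fibroblasts.

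**Figure D4:**
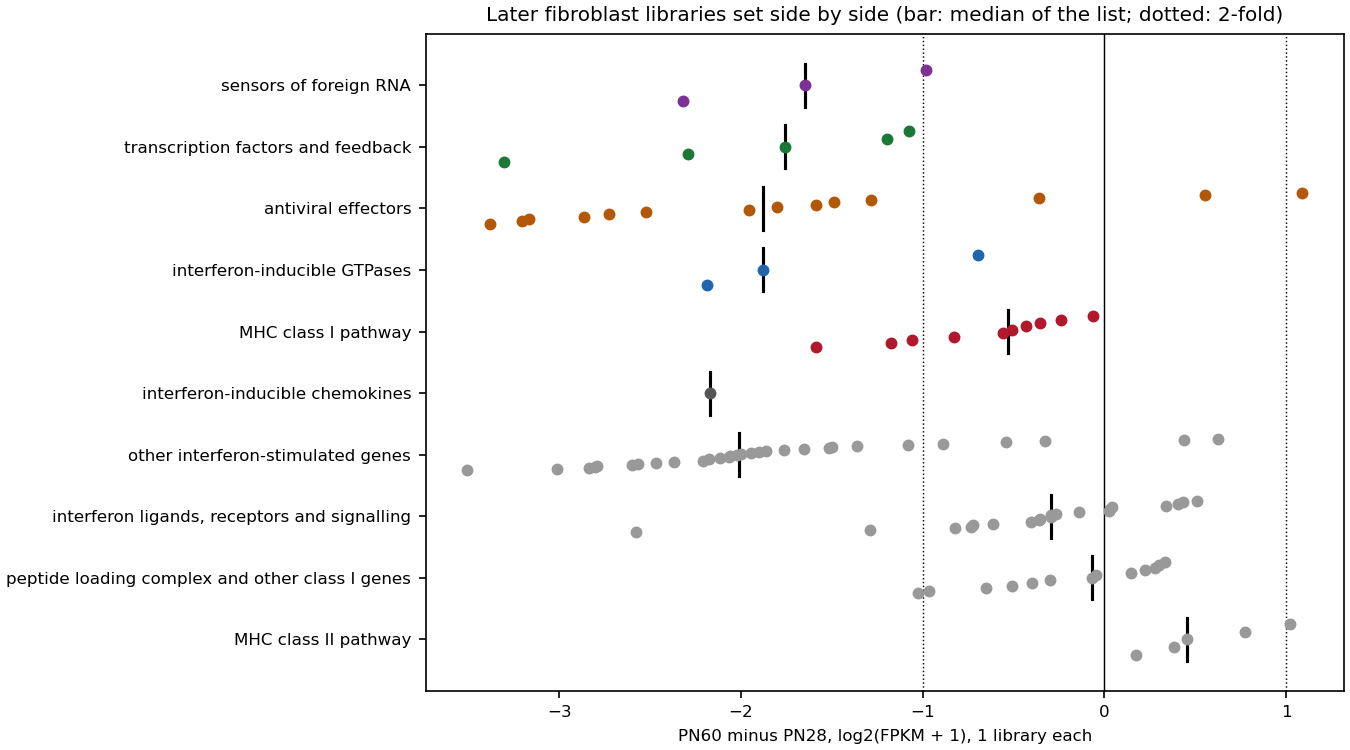
Difference between the PN60 and the PN28 fibroblast library for each tested gene, on the log2(FPKM + 1) scale, by role for the 36 genes (coloured) and for 4 other lists (grey), with the median of each list as a bar. Negative values are lower at PN60; class I genes have a median of −0.53 and other interferon-stimulated genes one of −2.01.

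In ventricles most of the genes tested rose over development. The slope over the 5 stages, per step from E17 to PN90, was called as a rise for 19 of 29 genes tested and as a fall for none, whereas 20.4% of all genes tested rose and 14.6% fell (limma on stage order, adjusted over 11617 genes). The median slope was 0.28 log2 units per step, against 0.02 over all genes tested. Ifih1, Irf7, Ifit3, Ifitm1 and H2-T23 were below a mean of 1 FPKM at E17 and PN1; of the other 24 genes 16 rose. With the FPKM as deposited 14 genes rose and Ifit2 and Ifitm2 fell, and with equal sums 12 rose and the same 2 fell; across all genes these scalings called 1271 higher and 3444 lower, and 1268 higher and 2888 lower, against 2367 higher and 1692 lower here. They moved the median of all genes to −0.09 and −0.08. Each stage is a single library, and without E17 6 genes rose (Ifit3, Gbp2, Irgm1, H2-D1, Tap2 and Psmb8), while without PN1 12 did.

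By role, 8 of 9 class I genes, 4 of 4 GTPases, 5 of 11 effectors, 1 of 3 factors and 1 of 2 sensors rose. Of all genes tested 20.4% rose. The calls of the class I genes Tap1 and Tapbp were lost under 6 alternatives each, both other scalings among them. That of the effector Ifi35 was lost under 7, again with both other scalings among them. H2-D1 had 26.7, 51.9, 65.1, 86.6 and 128 FPKM at E17, PN1, PN10, PN28 and PN90, with a slope of 0.52 (limma, adjusted p = 0.0044). B2m had 106, 117, 113, 157 and 240 FPKM over the same stages, with a slope of 0.28 (limma, adjusted p = 0.03); the call was lost under 8 alternatives, both other scalings among them, with limma adjusted p between 0.063 and 0.22. Gbp2 had 2.61, 2.55, 8.24, 12.1 and 15.0 FPKM, with the steepest slope of the group, 0.62 (limma, adjusted p = 0.0061). H2-D1, B2m and Gbp2 thus reached their highest level at PN90. Irgm1, not tested in cells, encodes another interferon-inducible GTPase and had 4.68, 8.51, 9.76, 14.2 and 17.9 FPKM. Ifit3 had 0.405, 0.452, 1.35, 3.10 and 3.27 FPKM, and Psmb8 had 1.95, 1.76, 4.41, 7.73 and 8.71. Both genes were low at E17 and PN1 and highest at PN90. Ifitm3 had 17.9, 31.3, 45.5, 69.9 and 60.3 FPKM, with a slope of 0.45 (limma, adjusted p = 0.01). Xaf1 had 3.34, 8.26, 14.2, 14.2 and 17.4 FPKM, with a slope of 0.49 (limma, adjusted p = 0.013). H2-K1 had 0.909, 1.52, 2.13, 3.76 and 2.65 FPKM, with a slope of 0.28 (limma, adjusted p = 0.035), a call lost under 6 alternatives, both other scalings among them, with limma adjusted p between 0.062 and 0.24. Ifitm3 and H2-K1 were highest at PN28 and lower at PN90, as was H2-T23 with 2.72 and 2.49 FPKM.

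Other genes of the group were under the filter on low values in ventricles or had no called slope. Isg15 had 0.294, 0.463, 0.796, 1.48 and 1.44 FPKM and Cxcl10 0.333, 0.0531, 0.0397, 0.0556 and 0.0653 over the stages, and neither reached the filter. Ifit2, Oasl2, Bst2 and Ifitm2 did not pass, with slopes between −0.15 and 0.06. Rsad2, whose protein viperin blocks viral replication, had 7.21, 1.72, 4.59, 5.36 and 2.65 FPKM and no called slope. Summed macrophage and leukocyte markers were 38.8, 44.5, 77.3, 229 and 171 FPKM over the stages. Of 12 such markers 11 rose, against 20.4% of all genes tested. Their rise went with that of the group, and its part was not tested. Signalling genes rose in 7 of 17 cases, led by Mavs at 0.46 and Ifngr1 at 0.38. Other interferon-stimulated genes rose in 11 of 21, led by Sp100 at 0.82 and Gbp7 at 0.41. Of 11 other class I genes 2 rose, H2-M3 at 0.44 and Erap1 at 0.40, and Cd1d1 fell by 0.64. Beside these lists, 20.4% of all genes tested rose and 14.6% fell.

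**Figure D5:**
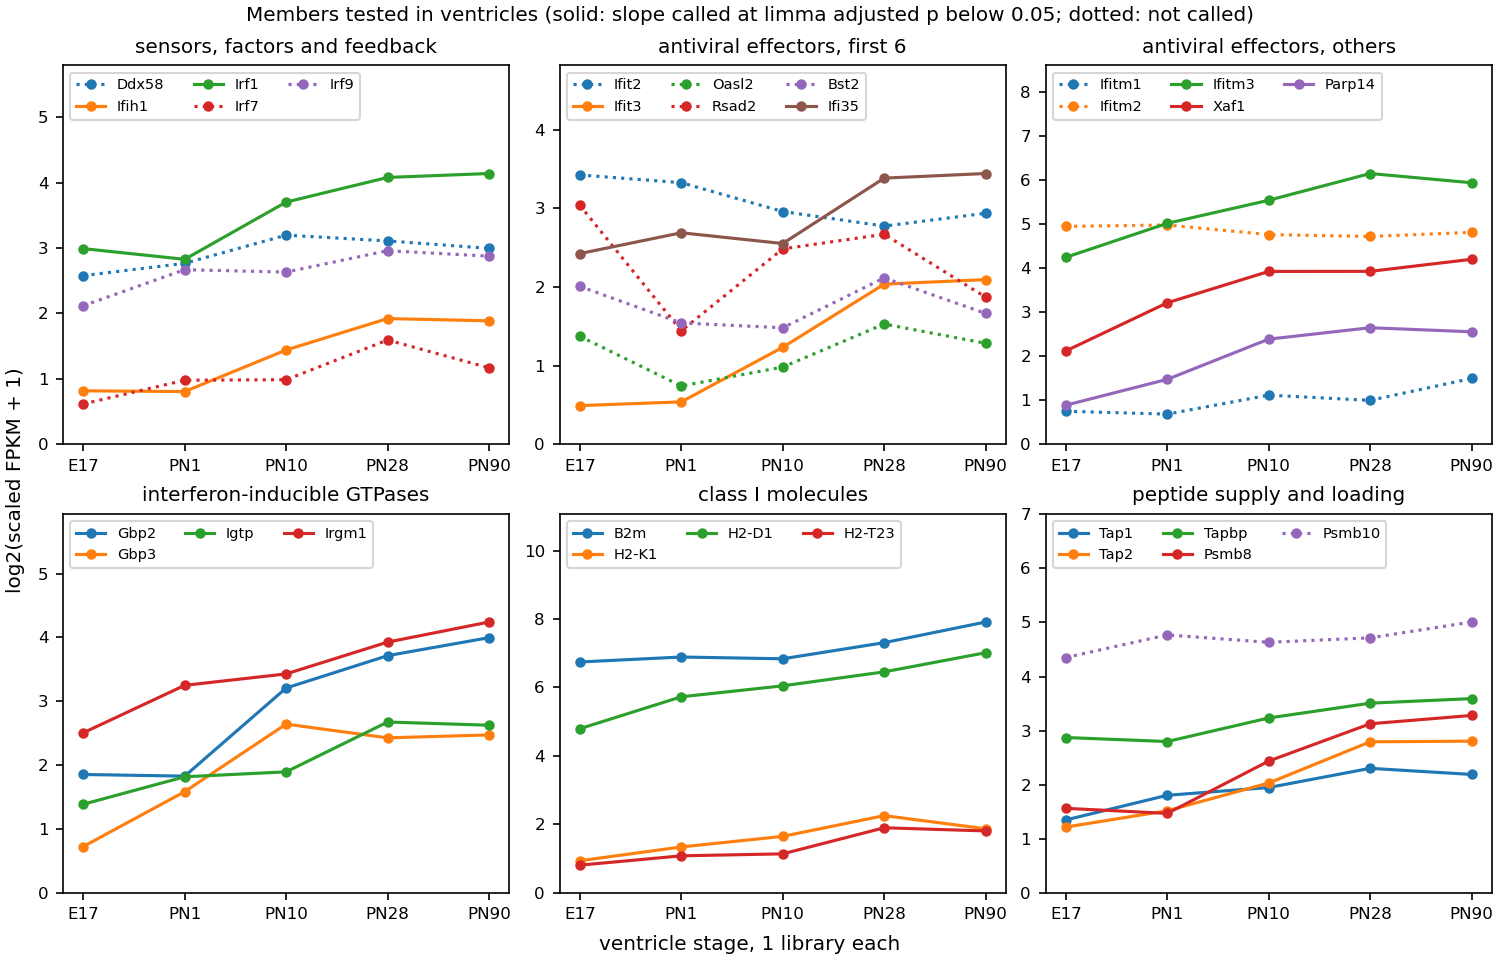
Levels of 29 genes in ventricles at E17, PN1, PN10, PN28 and PN90, as log2(scaled FPKM + 1), with 1 library a stage and genes grouped by role. Solid lines mark the 19 genes whose slope passed the limma test at an adjusted p below 0.05 and dotted lines the other 10; with the FPKM as deposited 14 passed as rises and Ifit2 and Ifitm2 as falls.

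Levels of some genes depend on how reads were shared out between transcripts. H2-K1-201 held between 44% and 59% of the H2-K1 FPKM in cells and at most 1.35% in ventricles, where another H2-K1 transcript held between 59% and 70%. Tap1-206 held between 61% and 83% of Tap1 in cells and between 12% and 26% in ventricles. Transcripts annotated as retained introns held between 72.0% and 83.5% of the Tap2 FPKM and between 37.6% and 80.4% of the Irf7 FPKM over the 13 libraries, so the levels printed for both genes include much FPKM assigned to transcripts annotated as non-coding. Transcripts with no gene name lay at several loci and held up to 65.8% of the signal at Oas1a, 59.2% at Tap1, 51.1% at Irf9 and 45.0% at Stat2 in a cell library. Those that lay wholly within the span of a single named gene, and overlapped no other, were added to that gene, a choice made after seeing the data. This left each count of genes of the group called in a comparison unchanged. Unnamed transcripts outside this rule were not added, and their effect was not tested. H2-K1, H2-D1 and H2-T23 belong to a family of near-identical copies, as do Oas1a and Ifit3, so reads may have been split between copies, and the class I alleles of FvB may differ from those of the reference; the effect was not tested.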

How the data were processed

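RNA-seq libraries of ventricles, cardiomyocytes and cardiac fibroblasts were analysed from the transcript tables that the authors deposited. Per the submitters' processing notes, reads were processed with TopHat2 2.0.5 and Cufflinks 2.1.1 on mm9; the release of the gene annotation was not given in the sources used here. The deposited values are FPKM with 95% confidence bounds, and coverage, which the authors' tables give per transcript and which served only as a guide to depth: deposited coverage divided by FPKM was between 19.5 and 32.8 in the 13 libraries.

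Transcripts were named through GENCODE release M21, which matched 82379 of 94696 (87.0%). FPKM of transcripts of 200 nucleotides or more were summed by gene, and a gene with a transcript of failed status was left out. Libraries were scaled by median-of-ratios factors (0.862 to 1.20), and log2(FPKM + 1) was tested with limma 3.58.1 under R 4.3.3, with trend = TRUE and p-values adjusted after Benjamini and Hochberg over all genes with a mean of at least 1 FPKM across the libraries of the fit. A difference on this scale understates the change of low genes. The 8 cell libraries were fitted together as 4 classes (4 residual degrees of freedom). Later classes join 2 ages each. The ventricle fit was a slope on stage order with 3 residual degrees of freedom. The scripts were tested on simulated data.

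No count test was run, since the deposited tables hold no counts. The neonatal libraries correlated at Spearman 0.993 in cardiomyocytes and 0.989 in fibroblasts across 12072 genes, which are not independent replicates. Genes of the group are reported by role; of the signalling, class I, class II and other lists, the 2 largest called changes each way were named unless the text says otherwise. The members and lists were chosen with earlier results of these data known. A gene of the signalling list is counted in it but not reported here by itself.

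Alternatives were the FPKM as deposited, equal sums without mitochondrial genes, a pseudocount of 0.1, no filter, all transcript lengths, low-data transcripts kept, no intensity trend, each later age its own class, each library left out and, in ventricles, PN28 and PN90 minus E17 and PN1. Motif searches used RefSeq promoters on GRCm38.p6, from 250 bases before to 50 after a start; 34 of 40 genes matched.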

Additional observations from a re-analysis of the deposited data

Results flagged for a closer look

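The change with age differed between the cell types for 29 of 36 genes, by a limma test of the fibroblast change minus the cardiomyocyte change at an adjusted p below 0.05. Every value was positive, the fibroblast change being the higher, a direction called for 26.3% of all genes tested. Dhx58, Oas1a, Mx2 and Nlrc5 passed the filter on low values only through the later fibroblasts, and 25 of the other 32 genes were called. The calls of Dhx58, Oas1a and Xaf1 were lost under 8 alternatives each. Those of Ddx58, Mx2, Igtp and Psmb8 were lost under 7 each. On the log2(FPKM + 1) scale the difference among sensors was 2.82 for Ddx58, 2.95 for Ifih1 and 1.93 for Dhx58. Among transcription factors it was 3.69 for Irf1, 3.24 for Irf7, 2.62 for Irf9 and 2.54 for Stat2. Among antiviral effectors it was 5.11 for Ifit1, 4.82 for Isg15, 1.88 for Oas1a, 3.62 for Mx2, 1.79 for Bst2, 2.17 for Ifi35, 3.07 for Ifitm3, 2.55 for Xaf1 and 3.77 for Parp14. The GTPases had differences of 4.33 for Gbp2, 3.88 for Gbp3 and 2.62 for Igtp. Class I genes had differences of 1.95 for Nlrc5, 2.30 for B2m, 3.77 for H2-K1, 2.92 for H2-D1, 1.07 for H2-T23, 2.79 for Tap1, 1.38 for Tap2, 1.5 for Tapbp and 1.82 for Psmb8. Cxcl10 had a difference of 6.71. For Irf1, Ifitm3, B2m, H2-K1, H2-D1 and Cxcl10 a rise in fibroblasts went with a fall in cardiomyocytes that also passed the test. The falls of Irf1, Ifitm3, B2m and H2-D1 were no longer called without the neonatal cardiomyocytes titled PN1. Those of Irf1, Ifitm3 and B2m were also lost without a filter.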

How the results depend on the processing

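Of 129 called results of single genes, 83 kept their call under every alternative run; over 2130 alternatives of these results 1950 kept call and direction, 180 lost the call and none reversed. The unnamed-transcript alternative was chosen after seeing the data. No paired analysis was possible because the labels give no replicate numbers that groups share. In what follows the count over all genes called the same way stands in brackets. In cardiomyocytes 1 gene rose with the FPKM as deposited (3363) and 1 with equal sums (3006), 5 with a pseudocount of 0.1 (4454) and 19 with each later age as its own class (5155), and 3 fell without a filter (4683). The change differed between cell types, higher in fibroblasts, for 19 genes without a filter (3538). In neonatal fibroblasts against cardiomyocytes 2 genes were lower with the FPKM as deposited (2765), 3 higher with equal sums (3285), 2 higher with a pseudocount of 0.1 (2273), 0 lower without a filter (3004), and 8 higher (3382) and 5 lower (3473) with each later age as its own class. Later fibroblasts had 0 genes lower than cardiomyocytes without a filter (6140). In ventricles 2 genes fell with the FPKM as deposited (3444), 12 rose (1268) and 2 fell (2888) with equal sums, 11 rose without a filter (1688), and 1 fell in PN28 and PN90 minus E17 and PN1 (1815). Leaving out each library in turn gave 27 to 35 rises and 0 to 0 falls of the group in fibroblasts, with 2745 to 6180 of all genes called. For cardiomyocytes it gave 1 to 17 rises and 2 to 8 falls, with 6329 to 9164 genes called. The difference of changes had 17 to 33 higher and 0 to 0 lower, with 5312 to 7997 genes called. Fibroblasts against cardiomyocytes had 0 to 7 higher and 0 to 4 lower in the neonate, with 2606 to 6464 genes called, and later 31 to 34 higher and 0 to 1 lower, with 8503 to 9662 genes called. Ventricles had 6 to 19 rises and 0 to 0 falls, with 1233 to 4489 genes called. Signs turned only for results that had not passed the test. With the FPKM as deposited these were Irf7 (−0.078) and Bst2 (−0.10) in cardiomyocytes, Ifitm2 (−0.071) in fibroblasts and Oasl2 (−0.014) in ventricles. With equal sums these were Irf7 (−0.16) and Bst2 (−0.21) in cardiomyocytes, Ifitm2 (−0.070) in fibroblasts, Ifitm3 (0.10) between neonatal cell types and Oasl2 (−0.0058) in ventricles. With PN28 and PN90 minus E17 and PN1 these were Rsad2 (0.030) and Bst2 (0.11) in ventricles. Leaving out each library in turn gave values on both sides of 0 for Irf7 (−0.12 to 0.56), Irf9 (−0.64 to 0.087) and Bst2 (−0.052 to 0.61) in cardiomyocytes, Psmb10 (−0.35 to 0.83) in the difference of changes, Ifitm1 (−0.33 to 0.093), Ifitm3 (−0.22 to 0.16), Nlrc5 (−0.017 to 0.058), H2-K1 (−0.36 to 0.039), Tap1 (−0.33 to 0.087) and Tapbp (−0.43 to 0.019) between neonatal cell types and Rsad2 (−0.25 to 0.14) and Bst2 (−0.062 to 0.095) in ventricles. The causes were not tested. Depth is unknown, and low genes such as Nlrc5 and Dhx58 in neonates lie near the pseudocount.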

Other observations

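MHC class II genes, which present peptides to helper T cells, rose with the class I genes in later fibroblasts but did not follow them in every comparison. All 5 that were tested were called higher in later fibroblasts, beside 19.7% of all genes tested; H2-Ab1 and H2-Eb1 passed the filter on low values only through those libraries, and the other 3 rose. H2-Aa had 114 FPKM at PN60 and 82.8 at PN28, against 0.593 and 1.52 in neonatal fibroblasts, and rose by 5.61 on the log2 scale. Cd74, the chaperone of class II molecules, had 668 and 592 FPKM in later fibroblasts, against 8.86 and 17.8 in neonatal ones, and rose by 5.53. In cardiomyocytes 4 of 5 rose, beside 37.2% of all genes tested, led by Cd74 at 2.80 and H2-Aa at 2.70. Between the later fibroblast libraries none of the 5 was past 2-fold lower at PN60 and the median was 0.46. H2-Eb1 was higher at PN60 by 1.02 on the log2 scale. Of all genes tested 2.68% were at least 2-fold lower and 1.94% higher, with 1 library at each age. In ventricles 1 of 4 rose, beside 20.4% of all genes tested, H2-Aa at 0.64 per step. Macrophage and leukocyte markers, which such cells carry together with class II, rose in the same libraries; their part was not tested.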
